A study of Mus musculus with 13 samples.

Results

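The 5 genes described here, measured in mouse liver, are Sema5b, Clstn3, Adgrf1, Nfe2 and Tafa2, each read through the probes that carry its name on the array. The files give Adgrf1 under its older name Gpr110 and Tafa2 under Fam19a2. Together the genes have 7 probes of the 39429 on the array that are not controls, 3 for Sema5b and 1 for each of the others, and all 7 were among the 25028 probes tested. The 5 genes, of 19513 genes or unnamed transcripts tested, were selected on their measured difference in signal between the HFHS and the ST diet in an earlier analysis of these data. Their values in that comparison are therefore given as a description, with no p-value. Calls and intervals given for it carry the same selection and do not test the genes.

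Livers of C57BL6 females, aged 12 weeks, gave the total RNA, which was hybridised to 13 one-colour Agilent arrays on 5 slides. There were 5 arrays from mice fed the diet labelled HFHS with vehicle, 5 from mice fed the standard diet (ST) with a mixture of 4 pollutants, and 3 from mice fed ST with vehicle. The labels call the arrays of a group biological replicates, and the sources used here give neither the composition of the HFHS diet nor the names of the pollutants. The series text can be read as placing the mixture in the high-fat diet, whereas every pollutant sample is labelled ST, and the sample labels were followed.

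None of the 5 genes encodes a classical hepatocyte product. Semaphorins are guidance proteins that signal through plexin and neuropilin receptors, and Sema5b is a transmembrane member of that family. Clstn3 encodes calsyntenin 3, a cadherin-related membrane protein that binds neurexins at synapses, and in mouse fat cells a shorter product of the same locus acts at lipid droplets. Adgrf1 encodes an adhesion G protein-coupled receptor, whose known ligand in mouse neurons is the docosahexaenoic acid derivative synaptamide. Nfe2 encodes the large subunit of the transcription factor NF-E2, which pairs with small Maf proteins and is required for platelet formation in mice. Tafa2 encodes a small secreted chemokine-like protein, best known from brain.

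Each signal is a property of its probe, so the 3 prime ends of the 60-base probes are shown, the last 30 bases of each, 5′ to 3′ on the transcript strand as the files give them. Capitals mark a polyadenylation signal, AATAAA or ATTAAA, searched on both strands.
Sema5b probe 1: ttaggtttgagctggaaatgacttccaatg
Sema5b probe 2: ttattaATTAAAgatgatatccagtctcca
Sema5b probe 3: agcagctcctgtgtggagttggggaatcca
Clstn3: ggccgcaccctagggttttcaAATAAAaca
Adgrf1: atacagttactcagccgaaatgcttaagga
Nfe2: gtctagagagtggacactggtgctagagac
Tafa2: tcatgcttctcattgcgaaatctatgtcat
Sema5b probe 2 holds ATTAAA and Clstn3 holds AATAAA, while AATAAA and ATTAAA occur in the last 30 bases of 12.6% and 4.82% of all 39429 probes. In the files' build, mm9, the Sema5b probes lie at chr16:35663660-35663719, chr16:35664281-35664340 and chr16:35664618-35664677 on the plus strand, with 561 and 277 bases between neighbours. Probe 3 is paired in the files with a cDNA clone and not with a RefSeq transcript. The Clstn3 probe lies at chr6:124380788-124380847 (minus strand), the Nfe2 probe at chr15:103078838-103078897 (minus) and the Tafa2 probe at chr10:123177891-123177950 (plus). The Adgrf1 probe is placed at chr17:43451421-43458149 (plus), a span of 6729 bases for 60 bases of probe, so its match crosses an intron. Whether the other probes lie in coding or untranslated sequence was not determined here.

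For every probe the signal is given as a percentage of the 75th percentile of its own array, so that 100 is the signal at that percentile. Differences are in log2 units between group means, with the standard error of a limma model fitted to all probes and all 13 arrays. Levels of different probes depend on the probe and are not compared. In bulk liver RNA, fewer cells of a type and less RNA per cell cannot be told apart.

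Per array, the 75th percentile was 782 to 1354 intensity units, and 63.8 to 70.4% of the probes stood well above background. Arrays correlated at 0.978 to 0.992 within groups and at 0.973 to 0.992 between groups, across probes. The 6 hepatocyte markers were abundant everywhere, with summed signals of 107017 to 159317% in HFHS, 131762 to 173623% in pollutants and 132876 to 156761% in ST vehicle. Their mean log2 value was 6.93 to 7.29 in HFHS, 7.30 to 7.67 in pollutants and 7.31 to 7.36 in ST vehicle, so that every HFHS array lay below the other groups, and limma called 1 of the 6 between HFHS and pollutants. Their part in the results was not tested. The 3 arrays of slide 1, 1 from each group, stood apart on the first principal component, which held 22.0% of the variance (-45.7 to -39.3, against -2.54 to 39.5 for the others). Slides 1, 2 and 5 hold all 3 groups, and slides 3 and 4 hold HFHS and pollutants. HFHS replicates 3, 4 and 5 carried transcripts of pancreatic acinar cells, with a sum over 8 markers of 30809, 12532 and 125105%, against 609 and 700% in HFHS replicates 1 and 2, 589 to 885% in pollutants and 607 to 754% in ST vehicle. Of the 77 tested markers of 15 cell types, limma called, by adjusted p, 0 between HFHS and ST vehicle, 0 between pollutants and ST vehicle, and 2 between HFHS and pollutants. At an unadjusted p under 0.05 stood 11, 10 and 22 of the 77 in these comparisons, against 11.98, 12.2 and 18.4% of all probes.

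Sema5b and Clstn3 were higher, and Adgrf1, Nfe2 and Tafa2 lower, in HFHS livers than in ST vehicle livers. Pollutant livers on the standard diet had a mean between the other 2 means for all 7 probes, including Sema5b probe 3, whose groups overlapped. Such a mean was found for 30.9% of all probes and for 82.2% of those called between HFHS and ST vehicle. Between HFHS and ST vehicle the arrays of the 2 groups did not overlap for any of the 5 lead probes, a lead probe being the brightest of its gene over the 13 arrays. The share of all probes with such a separation was 3.85% for higher and 5.31% for lower HFHS signal. In that comparison the probe-level model called 5 of the 7 probes, all but Clstn3 and Sema5b probe 3, against 0.627% of all probes (0.208% higher, 0.42% lower), a count that follows from how the genes were chosen.

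**Figure D1:**
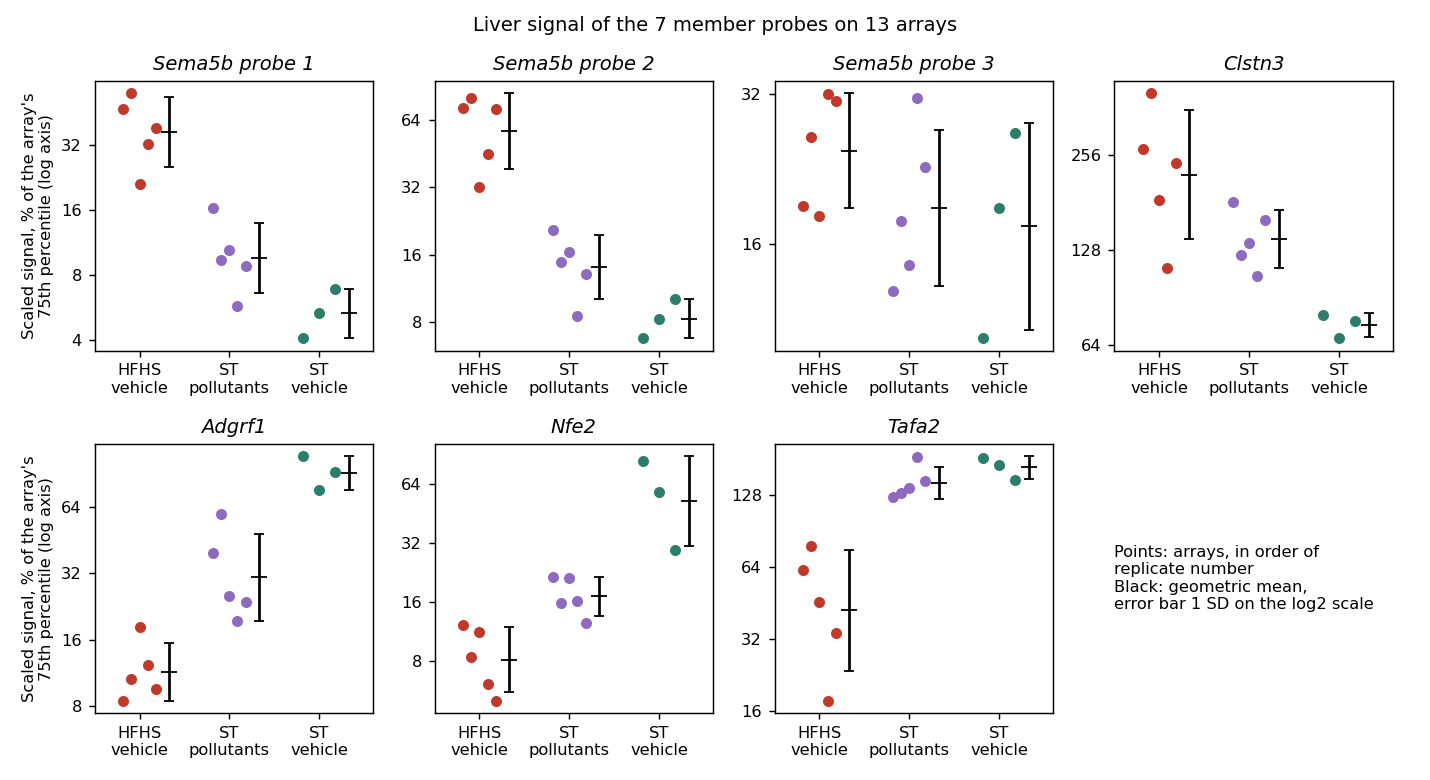
Signal of each of the 7 probes on the 13 arrays, as a percentage of the array's 75th percentile on a log axis, for HFHS vehicle, ST pollutants and ST vehicle. Points are arrays in order of replicate number, and the black bar is the geometric mean with 1 SD on the log2 scale. Adgrf1 and Nfe2 fall into 3 separate ranges, and the pollutant arrays of Tafa2 lie beside those of ST vehicle.

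Sema5b probe 2, the lead probe, read 72.0, 80.3, 31.96, 44.96 and 71.4% on the HFHS arrays, 20.6, 14.8, 16.4, 8.51 and 13.1% on the pollutant arrays, and 6.77, 8.25 and 10.1% on the ST vehicle arrays. Every HFHS array lay above every array of the other groups, and pollutant replicate 4 lay within the ST vehicle range. The HFHS signal was higher than that of ST vehicle by 2.78 ± 0.32 (6.88-fold) and ranked 24th by size among higher probes. Within slides 1, 2 and 5 this difference was 3.41, 3.28 and 2.82.

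Sema5b probe 1 read 47.4, 55.8, 21.2, 32.4 and 38.4% in HFHS, 16.3, 9.42, 10.4, 5.76 and 8.85% in pollutants, and 4.06, 5.34 and 6.89% in ST vehicle. Its difference between HFHS and ST vehicle, 2.80 ± 0.34 (6.98-fold), was close to that of probe 2. Probe 3 read 19.1, 26.3, 18.2, 31.99 and 31.0% in HFHS, 12.9, 17.8, 14.6, 31.4 and 22.9% in pollutants, and 10.4, 18.96 and 26.7% in ST vehicle. All 3 groups overlapped on probe 3, whose difference between HFHS and ST vehicle was 0.50 ± 0.34 (95% interval -0.24 to 1.25, 585th by size among higher probes). The gene is therefore described by probes 1 and 2, which lie upstream of probe 3 on the transcript strand, and probe 3 does not share their pattern.

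Clstn3 read 267, 401, 185, 112 and 242% in HFHS, 182, 123, 135, 106 and 159% in pollutants, and 79.6, 67.1 and 76.1% in ST vehicle. Every HFHS and every pollutant array exceeded every ST vehicle array, while HFHS and pollutants overlapped. The difference between HFHS and ST vehicle was 1.58 ± 0.32 (2.99-fold, 49th by size among higher probes), and it was 1.74, 2.58 and 1.67 within slides 1, 2 and 5. The ST vehicle arrays were close to each other, and the HFHS arrays were spread widely, with replicate 4 near the pollutant arrays.

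Adgrf1 read 8.45, 10.7, 18.3, 12.3 and 9.63% in HFHS, 39.5, 59.5, 25.2, 19.5 and 23.6% in pollutants, and 108, 75.7 and 91.4% in ST vehicle. The 3 groups lay in separate ranges, HFHS lowest. The difference between HFHS and ST vehicle, -2.99 ± 0.34 (7.93-fold lower), was the largest of the 5 genes and ranked 9th by size among lower probes. Within slides 1, 2 and 5 it was -3.68, -2.83 and -3.25.

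Nfe2 read 12.1, 8.37, 11.2, 6.11 and 4.97% in HFHS, 21.5, 15.7, 21.1, 16.2 and 12.4% in pollutants, and 83.8, 58.0 and 29.6% in ST vehicle. Here too the 3 groups lay in separate ranges, although the highest HFHS array came close to the lowest pollutant array, and ST vehicle replicate 3 was well below the other ST vehicle arrays. The difference between HFHS and ST vehicle was -2.70 ± 0.35 (6.48-fold lower, 12th by size), and -2.79, -2.79 and -2.57 within slides 1, 2 and 5. Separate ranges in this order, HFHS lowest, were found for 0.0639% of all probes, 16 in number, of which Adgrf1 and Nfe2 are 2, and the opposite order, HFHS highest, for 0.00799%. These shares cover all probes, while the genes were selected on the difference between HFHS and ST vehicle. That selection favours separate ranges, and the share among probes so selected was not computed.

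Tafa2 read 62.1, 78.1, 45.8, 17.6 and 34.0% in HFHS, 126, 131, 138, 185 and 146% in pollutants, and 184, 172 and 148% in ST vehicle. The HFHS arrays were all below the others, and pollutants and ST vehicle shared a range. The difference between HFHS and ST vehicle was -1.99 ± 0.37 (3.97-fold lower, 38th by size), and -1.57, -1.14 and -2.12 within slides 1, 2 and 5.

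HFHS replicates 3, 4 and 5, the arrays with acinar transcripts, had lower signals than replicates 1 and 2 for Sema5b probe 2, Clstn3 and Tafa2. Without those 3 arrays the difference between HFHS and ST vehicle was 3.20 for Sema5b, 2.14 for Clstn3, -3.26 for Adgrf1, -2.38 for Nfe2 and -1.26 for Tafa2. The differences of Sema5b, Clstn3 and Adgrf1 were thus as large or larger without them. Those of Nfe2 and Tafa2 were smaller, against -2.70 and -1.99 with all arrays. The part of the acinar transcripts in the Nfe2 and Tafa2 signals was not tested.

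Pollutants against ST vehicle addresses the effect of the mixture without a change of diet. For the 5 genes the limma model passed 0 of 7 probes at an adjusted p under 0.05, against 0.983% of all probes (0.555% higher, 0.428% lower), while 5 of the 7 probes, and 12.2% of all probes, had an unadjusted p under 0.05. This comparison uses the same 3 ST vehicle arrays as the one that chose the genes, so an ST vehicle mean that was extreme by sampling would move both the same way. Pollutant and ST vehicle arrays did not overlap for 3 of the 5 lead probes, Clstn3, Adgrf1 and Nfe2, and the share of all probes without overlap was 4% for higher and 4.44% for lower pollutant signal.

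**Figure D2:**
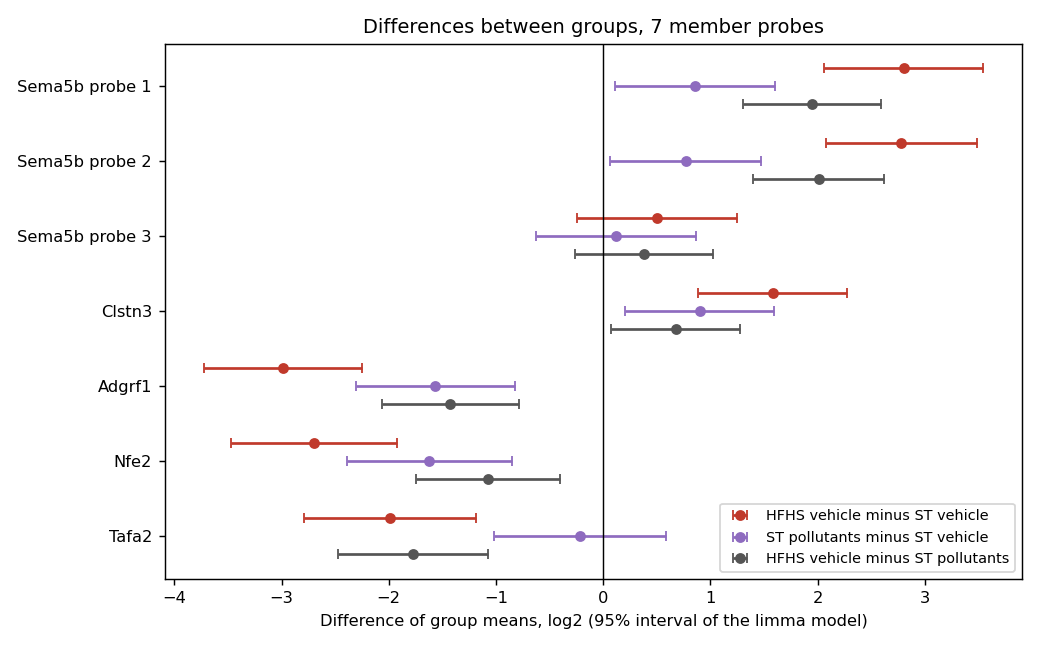
Differences between group means on the log2 scale for the 7 probes, with 95% intervals of the limma model, for HFHS vehicle minus ST vehicle, ST pollutants minus ST vehicle and HFHS vehicle minus ST pollutants. Each pair of comparisons shares the arrays of 1 group. Both differences of pollutants are about equal for Adgrf1, and for Tafa2 the interval of pollutants minus ST vehicle spans 0.

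Adgrf1 differed between pollutants and ST vehicle by -1.56 ± 0.34 (2.96-fold lower, adjusted p = 0.0542, unadjusted p = 0.000573), and Nfe2 by -1.62 ± 0.35 (3.08-fold lower, adjusted p = 0.0561). Neither passed the threshold. Within slides 1, 2 and 5 Adgrf1 differed by -1.45, -0.35 and -1.95, and Nfe2 by -1.97, -1.88 and -1.25. With slide as a block, Nfe2 passed (-1.67, adjusted p = 0.0115) and Adgrf1 did not (-1.54, adjusted p = 0.151). Leaving out pollutant replicate 2, the array with the highest Adgrf1 signal of its group, gave -1.80 (adjusted p = 0.0209). Leaving out ST vehicle replicate 3, the array with the lowest Nfe2 signal of its group, gave -2.03 for Nfe2 (adjusted p = 0.0466) and -1.56 for Adgrf1 (adjusted p = 0.199). Leaving out ST vehicle replicate 1 gave -1.28 for Nfe2 (adjusted p = 0.198) and -1.44 for Adgrf1 (adjusted p = 0.182). Over the 13 arrays left out in turn, the adjusted p ran from 0.0209 to 0.199 for Adgrf1 and from 0.0466 to 0.198 for Nfe2.

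Clstn3 was 1.87-fold higher in pollutants than in ST vehicle (0.90 ± 0.32, adjusted p = 0.243), with 1.19, 0.88 and 1.06 within slides 1, 2 and 5. Sema5b probe 2 differed by 0.77 ± 0.32 (1.71-fold higher, adjusted p = 0.347) and probe 1 by 0.86 ± 0.34 (adjusted p = 0.315). Within slides 1, 2 and 5 probe 2 differed by 1.60, 0.85 and 0.37, the smallest value on the slide of ST vehicle replicate 3. Neither gene passed, although their 95% intervals, 0.21 to 1.60 for Clstn3 and 0.07 to 1.48 for Sema5b probe 2, lay above 0. Sema5b probe 3 differed by 0.12 ± 0.34 (adjusted p = 0.958).

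Tafa2 differed between pollutants and ST vehicle by -0.22 ± 0.37 (adjusted p = 0.917). The 95% interval, -1.02 to 0.59, leaves room for a change of either sign. The values within slides 1, 2 and 5 were -0.55, -0.39 and -0.02.

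The direct comparison of HFHS with pollutants shares its 5 HFHS arrays with the comparison that chose the genes. An HFHS mean that was extreme by sampling would move both the same way. The counts and adjusted p-values of this comparison are therefore not independent of that choice. It called 4 of the 7 probes and 3 of the 5 lead probes, against 3.42% of all probes (1.43% higher, 2% lower). HFHS and pollutant arrays did not overlap for 4 of the 5 lead probes, all but Clstn3, and the share of all probes without overlap was 2.73% for higher and 4.01% for lower HFHS signal.

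Sema5b rose in HFHS relative to pollutants, by 2.01 ± 0.28 on probe 2 (4.03-fold, adjusted p = 0.00668) and by 1.95 ± 0.30 on probe 1 (3.86-fold, adjusted p = 0.00668). Over the 5 slides probe 2 differed by 0.96 to 2.45, higher in HFHS on 5 of 5. Probe 3 differed by 0.38 ± 0.30 (adjusted p = 0.581). Against pollutants, Tafa2 fell by 1.77 ± 0.32 in HFHS (log2 scale, 3.42-fold, adjusted p = 0.0118), and was lower on 5 of 5 slides, with a wide range of -3.40 to -0.75. Without the 3 arrays with acinar transcripts the Tafa2 difference was -1.05 (adjusted p = 0.0234) and that of Sema5b was 2.43 (adjusted p = 0.0200). Without the arrays of slide 1, neither passed, with 2.06 for Sema5b (adjusted p = 0.0653) and -1.96 for Tafa2 (adjusted p = 0.0730).

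Against pollutants, Adgrf1 fell by 1.42 ± 0.29 in HFHS (log2 scale, 2.68-fold, adjusted p = 0.0228). It was lower on 5 of 5 slides, with differences of -2.23 and -2.48 on slides 1 and 2, against -0.46, -0.66 and -1.30 on slides 3, 4 and 5. The call was lost when any of HFHS replicates 1, 2 and 5 or pollutant replicate 1 was left out (adjusted p = 0.0629, 0.0634, 0.0518 and 0.0506). It was also lost without the 3 arrays with acinar transcripts (-1.69, adjusted p = 0.0780), without slide 1 (-1.22, adjusted p = 0.146) and with normexp background correction (-0.64, adjusted p = 0.367). Adgrf1 was well above background on all 13 arrays, with a processed signal of 75.3 to 237 intensity units in HFHS. The normexp correction adds an offset of 50 such units, whose part was not tested.

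Nfe2 differed between HFHS and pollutants by -1.07 ± 0.31 (2.11-fold lower, adjusted p = 0.0793), and was lower on 5 of 5 slides, with differences of -1.40 to -0.82. With slide as a block it passed (-1.07, adjusted p = 0.0169), as it did without ST vehicle replicate 3, which bears only on the shared spread (adjusted p = 0.0486). Normexp background correction, with its offset of 50 units, left -0.17 (adjusted p = 0.774). The processed signal of Nfe2 was low in HFHS, at 38.9 to 146 units. Without the 3 arrays with acinar transcripts the difference was -0.76 (adjusted p = 0.368). Clstn3 was 1.60-fold higher in HFHS (0.68 ± 0.28, 95% interval 0.08 to 1.28, adjusted p = 0.209). Its values by slide ran from 0.08 to 1.70, and without HFHS replicate 4 it passed (0.92, adjusted p = 0.0467), as it did without the 3 arrays with acinar transcripts (1.24, adjusted p = 0.0365).

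**Figure D3:**
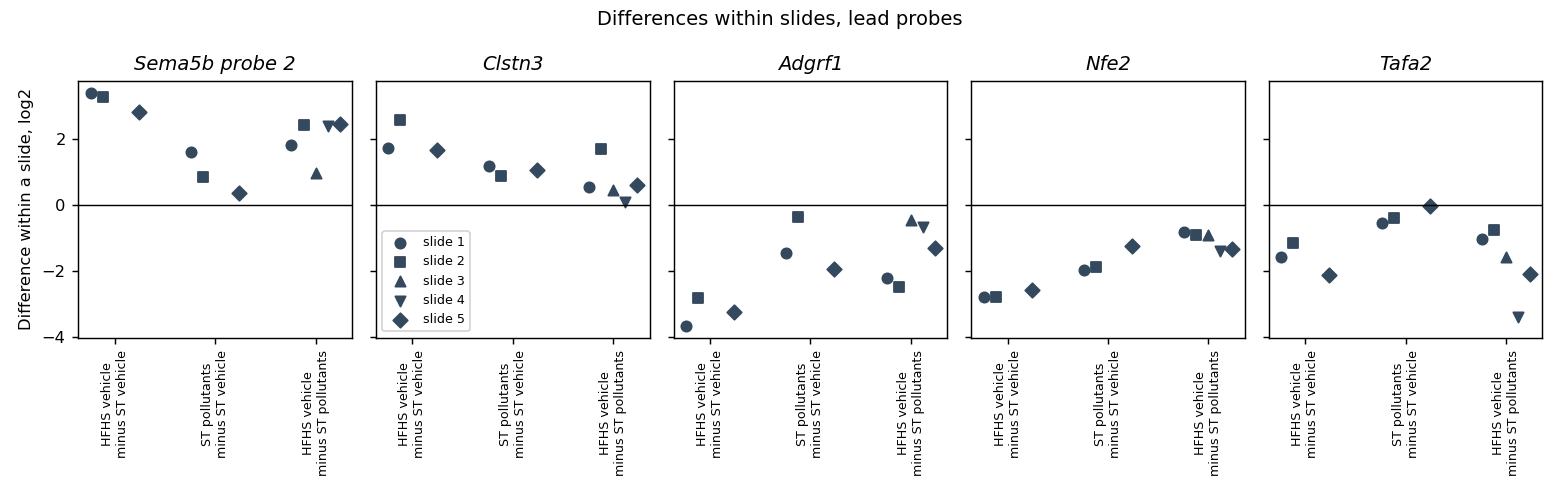
Differences between the arrays of a slide, on the log2 scale, for the 5 lead probes and the 3 comparisons, with 1 symbol per slide. Slides 3 and 4 hold no ST vehicle array. The sign is the same on every slide for each gene and comparison, and Tafa2 in pollutants minus ST vehicle is near 0 on slide 5.

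The position of the pollutant arrays can be expressed on the log2 scale between the ST vehicle mean (0%) and the HFHS mean (100%). It averaged 60.1% for Nfe2 (SD 12.2, 47.8 to 76.9% over the 5 arrays), 57.1% for Clstn3 (SD 19.3, 32.7 to 81.8%) and 52.3% for Adgrf1 (SD 21.8, 20.4 to 74.3%). Sema5b averaged 27.7% on probe 2 (SD 16.96, 1.55 to 47.3%) and 30.5% on probe 1. Tafa2 averaged 10.95% (SD 10.95, -7.24 to 20.6%). Nfe2, Clstn3 and Adgrf1 lay in the middle of the scale with ranges that overlap each other, and every Tafa2 array lay below every Nfe2 and every Clstn3 array.

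These positions are a description, since the scale is built from the means that chose the genes. The pollutant mean lay between the other 2 means for 30.9% of all probes. Among the 157 probes called between HFHS and ST vehicle it did so for 129 (82.2%), with a median position of 62.1% and quartiles of 38.5 and 84.0%. Nfe2, Clstn3 and Adgrf1 lay between those quartiles, and both Sema5b probes and Tafa2 lay below the lower one.

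**Figure D4:**
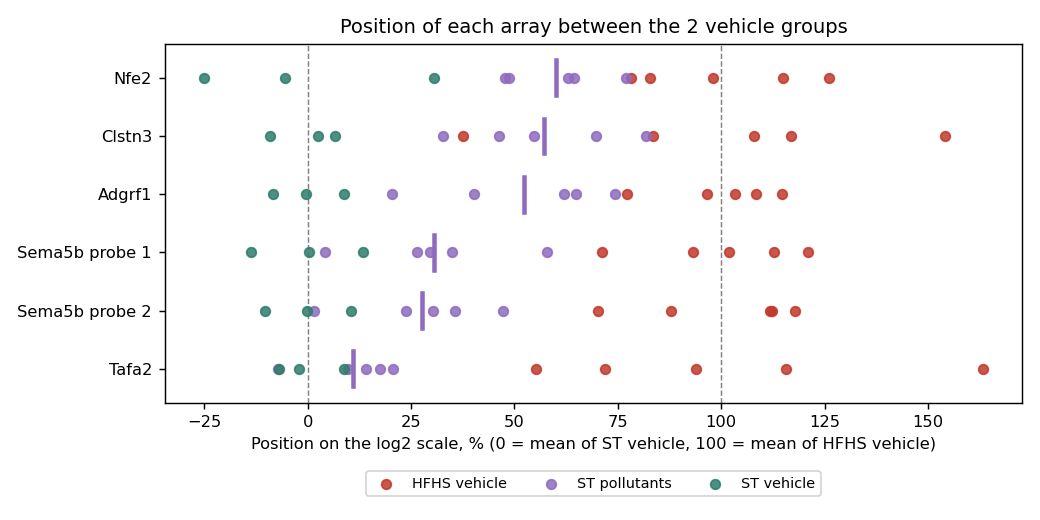
Position of every array on the log2 scale between the mean of ST vehicle (0%) and the mean of HFHS vehicle (100%), for 6 probes. Points are arrays coloured by group, and the vertical bars are the pollutant means, at 60.1% for Nfe2, 57.1% for Clstn3, 52.3% for Adgrf1, 30.5 and 27.7% for Sema5b and 10.95% for Tafa2.

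Arrays of a group deviated together for some pairs of the genes. After the group means were removed, the deviations over the 13 arrays had a Pearson r of 0.67 between Sema5b and Clstn3 and of 0.72 between Clstn3 and Tafa2. The other 8 of the 10 pairs lay between -0.25 and 0.44, and Adgrf1 with Nfe2, both in graded order, gave 0.17. The arrays share their scaling factor and slide, so the values are a description.

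The relatives and partners of the 5 genes were measured by 6 lists with 86 genes, of which 60 were tested. For the semaphorins, 14 of 19 tested, limma called 0 between HFHS and ST vehicle and 0 between pollutants and ST vehicle (2 and 3 at an unadjusted p under 0.05). Between HFHS and pollutants it called 2, both lower, and 5 had an unadjusted p under 0.05. Of all probes, 0.627, 0.983 and 3.42% were called between HFHS and ST vehicle, pollutants and ST vehicle, and HFHS and pollutants. In the same order, 11.98, 12.2 and 18.4% had an unadjusted p under 0.05. Sema6d, a transmembrane semaphorin, averaged 684% in HFHS, 1671% in pollutants and 1058% in ST vehicle, and fell by 1.29 ± 0.18 in HFHS relative to pollutants (log2 scale, adjusted p = 0.00668). Sema4c, also membrane-bound, fell by 0.92 ± 0.15 (adjusted p = 0.00882). The median of the list was -0.14 between HFHS and ST vehicle, against -0.02 over all probes, and the list ran from -0.69 to 0.20. Between HFHS and pollutants, Sema5b and these 2 semaphorins thus differed in opposite directions. Sema5a, its closest relative, differed by -0.17 between HFHS and ST vehicle and by -0.65 between HFHS and pollutants.

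Of the receptors for semaphorins, 10 of 11 plexin and neuropilin genes were tested and limma called 0 in the 3 comparisons. For HFHS against ST vehicle, pollutants against ST vehicle and HFHS against pollutants, 0, 1 and 0 had an unadjusted p under 0.05. The shares of all probes at that p were 11.98, 12.2 and 18.4%. Plxnb3, a plexin of low signal, differed by -0.71 ± 0.30 between pollutants and ST vehicle (adjusted p = 0.340). The differences between HFHS and ST vehicle ran from -0.57 to 0.13.

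Of the adhesion G protein-coupled receptors, 17 of 29 were tested and limma called 0 in the 3 comparisons. At an unadjusted p under 0.05 stood 3, 2 and 5 of the 17, against 11.98, 12.2 and 18.4% of all probes. Their differences between HFHS and ST vehicle ran from -0.53 to 0.41 with a median of 0.00, against -2.99 for Adgrf1. Adgrf5, which lies 138 kb from the Adgrf1 probe in mm9, differed by -0.21 ± 0.16 between HFHS and ST vehicle. Adgrg3, a receptor of immune cells, differed by -0.38 ± 0.11 between HFHS and ST vehicle (adjusted p = 0.173).

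All 10 genes of the list of factors related to Nfe2 and of Maf proteins were tested, and limma called 0 in the 3 comparisons. At an unadjusted p under 0.05 stood 2, 2 and 5 of the 10, against 11.98, 12.2 and 18.4% of all probes. Bach1, a repressor that competes for the same Maf partners, differed by -0.34 ± 0.09 between HFHS and pollutants (adjusted p = 0.0549) and by 0.45 ± 0.10 between pollutants and ST vehicle (adjusted p = 0.0601). Of the small Maf genes, Maff, Mafg and Mafk differed by -0.46, 0.27 and -0.36 between HFHS and ST vehicle. Bach2, a repressor best known from B cells, had the lowest value of the list at -1.16, and Nfe2l2, which encodes the oxidative stress regulator NRF2, differed by 0.07. Sema5a, the small Maf genes, Bach2 and Nfe2l2 were named after their values were seen.

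Of the genes listed with the calsyntenins and their partners, 8 of 13 were tested and limma called 0 in the 3 comparisons. At an unadjusted p under 0.05 stood 0, 0 and 1 of the 8, against 11.98, 12.2 and 18.4% of all probes. App, the amyloid precursor protein, which shares an adaptor with calsyntenins, differed by -0.28 ± 0.11 between HFHS and pollutants (adjusted p = 0.176). Tafa5, the 1 tested gene of the other 4 of the TAFA family, differed by 0.19 ± 0.21 between HFHS and ST vehicle and by 0.46 ± 0.18 between HFHS and pollutants (adjusted p = 0.185, the 1 comparison of the 3 with an unadjusted p under 0.05).

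**Figure D5:**
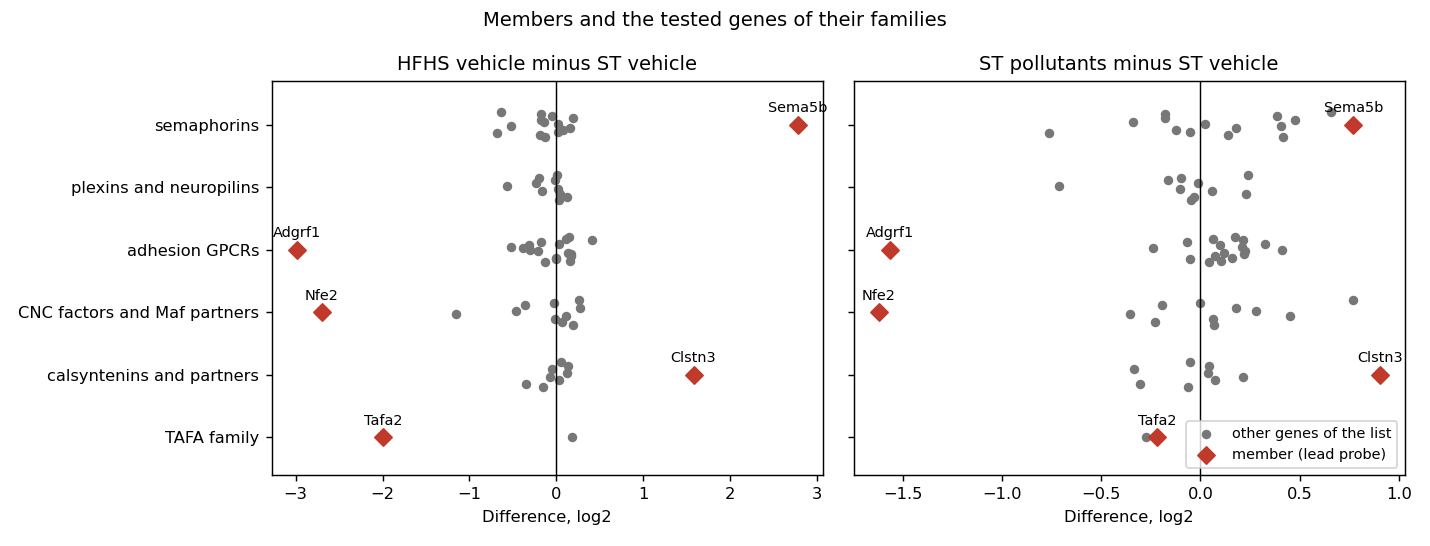
Differences on the log2 scale of the 5 lead probes (diamonds) and of the tested genes of the 6 lists (grey points, brightest probe of each gene) for HFHS vehicle minus ST vehicle and for ST pollutants minus ST vehicle. In the first panel the list genes lie between -1.16 and 0.41 and the members at -2.99, -2.70, -1.99, 1.58 and 2.78.

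The nearest tested genes on each side, 2 per side by probe position in mm9, were also compared. Of these 20 neighbours limma called 0 between HFHS and ST vehicle (3 at an unadjusted p under 0.05), where they ran from -0.40 to 0.25. It called 1 between pollutants and ST vehicle (3 at an unadjusted p under 0.05) and 3 between HFHS and pollutants (9 at that p). Of all probes, 0.627, 0.983 and 3.42% were called in these comparisons. At an unadjusted p under 0.05 stood 11.98, 12.2 and 18.4% of all probes. Slc16a7, a monocarboxylate transporter 1478 kb from the Tafa2 probe, rose in pollutants by 1.101 ± 0.148 relative to ST vehicle (adjusted p = 0.00698) and fell by 0.86 ± 0.13 in HFHS relative to pollutants (adjusted p = 0.00668). Pdia5, a disulfide isomerase gene 257 kb from the Sema5b probe, fell by 0.63 ± 0.13 in HFHS relative to pollutants (adjusted p = 0.0278). Pla2g7, a platelet-activating factor acetylhydrolase gene 291 kb from the Adgrf1 probe, fell by 0.72 ± 0.18 (adjusted p = 0.0457). The last 2 calls were lost under 14 and 21 of the 25 alternative settings.

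The genes whose signals ran most like each lead probe over the 13 arrays were taken from 14393 genes by Pearson's r. For Nfe2 these were Psg16, a pregnancy-specific glycoprotein gene (0.97), and Fdft1 (0.94) and Hsd17b7 (0.93), both enzymes of cholesterol synthesis. The lowest r was that of Cyp7a1, which encodes the enzyme that starts bile acid synthesis (-0.94), which was 1.99 higher in HFHS and 1.14 higher in pollutants than in ST vehicle on the log2 scale. For Adgrf1 they were Zfand4 (0.96), Arhgef10l (0.92) and Eif1a, a translation initiation factor gene (0.92), and the lowest was Rcan2, a calcineurin regulator gene (-0.92). Rcan2 was among the 3 most like Sema5b (0.91), with Rexo5 (0.92) and Flacc1 (0.91), and Slc35b3 was lowest (-0.93).

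Clstn3 ran most like Atp6v0a2, a subunit gene of the vacuolar proton pump (0.92), Etnk1, an ethanolamine kinase gene (0.91), and Miga2 (0.91), and least like Manf, an endoplasmic reticulum stress gene (-0.93). Tafa2 ran most like Tmem62 (0.90), Tm7sf2, a sterol reductase gene (0.90), and Capn10 (0.89), and least like Spsb4 (-0.88). These r values hold the differences between the groups. With the group means removed, r was 0.82 for Nfe2 with Psg16, 0.75 for Adgrf1 with Zfand4, 0.63 for Sema5b with Rexo5, 0.75 for Clstn3 with Atp6v0a2 and 0.73 for Tafa2 with Tmem62.

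Markers of other cells in which the genes are known were set beside them. For Nfe2, the erythroid markers (4 of 6 tested) summed to 7737 to 12196% in HFHS, 11105 to 14378% in pollutants and 7373 to 10421% in ST vehicle. The megakaryocyte and platelet markers (5 of 6 tested) summed to 75.8 to 102% in HFHS, 72.9 to 177% in pollutants and 90.4 to 98.8% in ST vehicle. The mast cell markers (3 of 6 tested, Cma1 and Fcer1a never above background) summed to 88.4 to 134% in HFHS, 90.7 to 129% in pollutants and 97.0 to 126% in ST vehicle. None of these 3 sums ran in the order of Nfe2, whose groups were separate. The part of these cells in the Nfe2 signal was not tested.

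The cholangiocyte markers (5 of 6 tested) summed to 133 to 171% in HFHS, 172 to 423% in pollutants and 210 to 234% in ST vehicle. The sum was thus lowest in HFHS, as were Adgrf1, Nfe2 and Tafa2, but the nearest HFHS and pollutant arrays were almost equal (171.3 and 171.8%). In mean log2 value HFHS (-3.36 to -3.00) and pollutants (-3.08 to -2.11) overlapped, with ST vehicle at -2.57 to -2.50. In no comparison did limma call any of these markers. The part of this list in the results of the 5 genes was not tested. The neuron and Schwann cell markers (4 of 6 tested, Nefl and Tubb3 never above background) summed to 455 to 605% in HFHS, 317 to 390% in pollutants and 390 to 587% in ST vehicle. Every HFHS sum thus lay above every pollutant sum, as for Sema5b, and limma called 1 of these markers between HFHS and pollutants. In mean log2 value HFHS (-3.16 to -2.57) and pollutants (-3.13 to -2.78) overlapped. The part of the neuron and Schwann cell markers in the results was also not tested. The adipocyte markers (5 of 6 tested) summed to 236 to 301% in HFHS, 209 to 979% in pollutants and 246 to 378% in ST vehicle, and did not separate the groups as Clstn3 did. The part of fat cells in the Clstn3 signal was not tested.

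The promoters of Sema5b and Adgrf1 are shown because the 2 genes had the largest differences in opposite directions. Each is the 250 bases before a RefSeq start site (GRCm38.p6), 5′ to 3′ on the gene's strand, at chr16:35541112-35541361 for Sema5b and chr17:43270097-43270346 for Adgrf1, both on the plus strand. Capitals mark a match to the TATA motif TATAAA, the CCAAT motif, the GC box GGGCGG, the cAMP response motif TGACGTCA or the bZIP motif TGANTCA, searched on both strands.
Sema5b promoter: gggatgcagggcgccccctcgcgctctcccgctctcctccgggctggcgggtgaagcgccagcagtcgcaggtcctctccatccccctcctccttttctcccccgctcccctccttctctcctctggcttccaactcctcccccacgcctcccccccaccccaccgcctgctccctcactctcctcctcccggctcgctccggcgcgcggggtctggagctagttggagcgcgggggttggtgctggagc
Adgrf1 promoter: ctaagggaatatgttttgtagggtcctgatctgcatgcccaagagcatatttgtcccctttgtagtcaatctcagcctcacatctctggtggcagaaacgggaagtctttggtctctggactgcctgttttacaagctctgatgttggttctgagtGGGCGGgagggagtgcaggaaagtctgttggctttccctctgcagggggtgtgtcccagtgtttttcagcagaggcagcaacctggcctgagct
The Sema5b window holds 72.0% G or C and 19 CpG dinucleotides and none of the 5 motifs. The Adgrf1 window holds 52.0% G or C and 2 CpG dinucleotides, and GGGCGG 94 bases before the start. The table matched 4 of the 5 genes. The 2 Clstn3 windows held 58.4 and 52.4% G or C, the first with CCAAT 87 and 39 bases and GGGCGG 108 bases before the start. The Tafa2 window held 38.8% G or C, with CCAAT 10 bases before the start. These Clstn3 and Tafa2 matches lay on the strand opposite the gene. Over all 32851 windows the median was 52.4% G or C and 6 CpG dinucleotides, and TATAAA occurred in 12.4% of them, the CCAAT motif in 33.8%, GGGCGG in 32.7%, TGACGTCA in 1.55% and TGANTCA in 6.75%. The matches describe the letters of these windows only.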

How the data were processed

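Liver RNA of 13 samples was measured on Agilent 4x44K mouse arrays, labelled with Cy3 from 0.1 ug of RNA per the labels' protocols. The deposited scanner files give spot intensity on the linear scale, per the file headers from Agilent Feature Extraction 11.5.1.1 as run by the authors, and its processed signal was used. The authors also deposited a normalized table, on a log2 scale as judged from its values, for 26082 probes. The submitters' processing notes name limma. That table served only as an alternative. Each of its columns matched its own array best (13 of 13).

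Control spots and spots marked as outliers were left out, log2 signals were averaged per probe, and scaled by subtracting the 75th percentile of the array. Testing was limited to probes well above background on all arrays of 1 or more groups. limma 3.58.1 in R 4.3.3 fitted 1 model with the 3 groups to all 13 arrays and 25028 probes. All adjusted p-values are two-sided, from this limma model, with Benjamini-Hochberg adjustment over all 25028 probes, and a call is an adjusted p under 0.05. Each probe was kept apart, and errors are standard errors unless given as SD. The number of arrays, above all 3 of ST vehicle, limits the precision. Symbols came from RefSeq accessions and symbols in the files, which matched 31809 of 39429 probes. The code was tested on simulated data.

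The members, lists, tests and alternatives were chosen with earlier results of these data known. Named beside the members were, per family list, the called genes (up to 4) or the gene of lowest p, per member the 3 genes of highest and the 1 of lowest r, and the 2 nearest tested genes on each side. Alternatives changed the scaling, background correction, filter, unit of testing, samples and blocking. No genome was used here.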

Additional observations from a re-analysis of the deposited data

How the results depend on the processing

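No difference of the 5 genes changed sign under any of the 25 alternatives, 13 of which leave out 1 array each. Between HFHS and ST vehicle, normexp background correction gave 2.20 for Sema5b, -1.96 for Adgrf1 and -1.48 for Nfe2, and the authors' table gave 1.74, -2.07 and -1.69 for the same genes. The fold differences of these genes were thus smaller under both alternatives than in the main model. The processed signal was 75.4 to 96.6 units for Sema5b probe 2 in ST vehicle. In HFHS it was 75.3 to 237 for Adgrf1 and 38.9 to 146 for Nfe2, and the normexp offset was 50. Without HFHS replicates 3, 4 and 5, which carried acinar transcripts, Clstn3 gave 2.14 and Tafa2 -1.26. Normexp also raised the median of all probes, to 0.12 for HFHS against ST vehicle and 0.12 for HFHS against pollutants, and moved the pollutant position of Nfe2 to 88.7%. Over the arrays left out in turn, the difference between HFHS and ST vehicle ran from 2.64 to 2.99 for Sema5b, 1.37 to 1.83 for Clstn3, -3.16 to -2.86 for Adgrf1, -3.11 to -2.36 for Nfe2 and -2.21 to -1.67 for Tafa2. The causes were not tested.

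Between pollutants and ST vehicle, Adgrf1 and Nfe2 came past the threshold in the authors' table (-1.22, adjusted p = 0.0387, and -1.17, adjusted p = 0.0447) and with only probes well above background on all 13 arrays (-1.56, adjusted p = 0.0458, and -1.62, adjusted p = 0.0472), where 22944 probes were tested. Nfe2 also did with slide as a block (-1.67, adjusted p = 0.0115). For Adgrf1 and Nfe2 the adjusted p was 0.456 and 0.390 under normexp, 0.206 and 0.117 with a replicate block, 0.140 and 0.112 with the 2 groups fitted alone, and 0.202 and 0.199 without slide 1. Over the arrays left out in turn, Adgrf1 ran from -1.80 to -1.40 and Nfe2 from -2.03 to -1.28, while Sema5b, Clstn3 and Tafa2 did not pass under any alternative. Between HFHS and pollutants, Adgrf1 was lost under normexp (-0.64, adjusted p = 0.367), in the authors' table (-0.85, adjusted p = 0.0536), without the acinar-high arrays (-1.69) and without slide 1 (-1.22). Sema5b (2.06) and Tafa2 (-1.96) were lost without slide 1. Nfe2 passed with slide as a block (-1.07), and Clstn3 without the acinar-high arrays (1.24). Over the arrays left out, Adgrf1 ran from -1.59 to -1.19, Nfe2 from -1.22 to -0.90, Clstn3 from 0.46 to 0.92, Sema5b from 1.83 to 2.22 and Tafa2 from -1.995 to -1.46. Without slide 1, Sema6d (-1.15), Sema4c (-0.81) and Slc16a7 (-0.84) also missed the threshold.

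The number of probes called, 157, 246 and 857 for HFHS against ST vehicle, pollutants against ST vehicle and HFHS against pollutants, fell under most alternatives. In the same order it was 89, 60 and 354 with the array median, 46, 13 and 269 with normexp, 69, 58 and 395 with no filter, 106, 84 and 921 with slide as a block, 7, 116 and 295 without the acinar-high arrays, 2, 23 and 15 without slide 1, and 27, 47 and 581 with only the groups compared. Normexp split the calls between pollutants and ST vehicle into 6 higher and 7 lower, against 139 and 107. Over the arrays left out it ran from 35 to 159, from 48 to 213 and from 383 to 826, lowest without ST vehicle replicate 1, ST vehicle replicate 3 and HFHS replicate 2.

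The replicate numbers are shared by the groups, and of 11 same-numbered pairs of arrays 8 had deviations correlated over 0.1 (range -0.16 to 0.55). Number and slide coincide except for ST vehicle replicate 3, which is on slide 5. That array gave -0.14 and -0.16 with HFHS and pollutant replicates 3, on another slide. With HFHS and pollutant replicates 5, on its own slide, it gave 0.25 and 0.27. The labels state no pairing, and the numbers were not taken as one. The main model holds neither number nor slide. With the replicate number as a block, 62, 62 and 581 probes were called, and Adgrf1 missed the threshold between HFHS and pollutants (-1.42, adjusted p = 0.0536). The other calls of the 5 lead probes between pollutants and ST vehicle and between HFHS and pollutants were unchanged by the replicate block. Between HFHS and ST vehicle, where no p-value is given for the genes, Tafa2 gave -1.79 ± 0.40 with that block. Without the block it gave -1.99 ± 0.37.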
